A study of Homo sapiens with 9 samples.

Results

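IGF2BP1, IGF2BP2, IGF2BP3, LIN28A, LIN28B, HMGA1 and HMGA2 are oncofetal factors linked to the let-7 microRNA family. These 7 genes were taken by symbol from the 58174 genes of the expression tables, and all 7 were found. RNA abundance had been monitored in ES-2, a line established from an ovarian carcinoma, by sequencing of total RNA after removal of ribosomal RNA. Cells had received, 72 h before, a control siRNA (siC), siRNAs directed at IGF2BP1 (siIGF2BP1) or siRNAs directed at the serum response factor SRF (siSRF), with 3 libraries per group. All groups were thus transfected cells of the same line, and neither an untransfected group nor a rescue was among them. The comparisons ask how the mRNAs of these factors respond when IGF2BP1, itself a member, or the transcription factor SRF is depleted.

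IGF2BP proteins bind mRNAs in the cytoplasm through KH and RRM domains and are known to protect target mRNAs from degradation, including degradation directed by microRNAs. LIN28A and LIN28B bind precursors of let-7 and block their maturation. HMGA1 and HMGA2 are small chromatin proteins that bind AT-rich DNA and shape transcription. All are abundant in embryonic tissue, largely silenced in most adult tissue and found again in tumours, with the exception that IGF2BP2 persists in many adult tissues. Let-7, which rises as cells differentiate, is a well-known repressor of HMGA2, LIN28 and IGF2BP mRNAs.

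The let-7 family explains why these genes are grouped, and its shared seed is therefore shown. The 9 mature members found in RefSeq (GRCh38.p14) carry the same bases 2 to 8, in capitals in the following examples, and differ in the remainder by up to 4 bases from let-7a.
let-7a-5p: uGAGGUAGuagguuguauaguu
let-7e-5p: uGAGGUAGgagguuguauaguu
let-7i-5p: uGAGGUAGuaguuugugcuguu
miR-98-5p: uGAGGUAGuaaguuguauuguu

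The match to this seed on an mRNA is CTACCTC, searched on the transcript strand in the 3′UTRs of canonical transcripts (GENCODE 44, GRCh38). All 7 mRNAs held at least 1 match, compared with 9.78% of 19301 3′UTRs (1888). The genes were chosen as factors linked to let-7, so this and the shares below are a description and no sign of enrichment. IGF2BP1, LIN28B and HMGA2 held 4 matches each, and the other genes held 1 each. Since long 3′UTRs hold more matches by length alone, each gene was set beside 3′UTRs of 80 to 125% of its length. Of these, 8.8% (for HMGA1) to 32.5% (for IGF2BP1) had a match, whereas as many as 4 were found in 0.51% for IGF2BP1, 0.184% for LIN28B and 0.0825% for HMGA2. Each share counts the gene itself, in sets of 785 3′UTRs for IGF2BP1, 1634 for LIN28B and 2424 for HMGA2. One 23-base window per gene is shown, the first after the stop codon, with the seed match in capitals. Each lies within the last exon of its transcript.
IGF2BP1 (chr17:49051061-49051083, plus strand): tgtgtgcgaagtaaaCTACCTCa
IGF2BP2 (chr3:185644220-185644242, minus strand): aacacacagaagaagCTACCTCa
IGF2BP3 (chr7:23311795-23311817, minus strand): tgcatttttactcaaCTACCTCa
LIN28A (chr1:26427348-26427370, plus strand): gcacagcctattgaaCTACCTCa
LIN28B (chr6:105078812-105078834, plus strand): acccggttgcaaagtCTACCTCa
HMGA1 (chr6:34245829-34245851, plus strand): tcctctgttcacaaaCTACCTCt
HMGA2 (chr12:65963298-65963320, plus strand): gccaacgttcgatttCTACCTCa

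The first match of HMGA2 starts 21 bases and that of LIN28B 44 bases after the stop codon, whereas the first match of IGF2BP1 lies 1632 bases into a 3′UTR of 6701 bases. The HMGA1 3′UTR, at 1347 bases, was the shortest of the 7. A match is a stretch of letters and not a measured site, and microRNAs were not measured in these libraries.

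**Figure D1:**
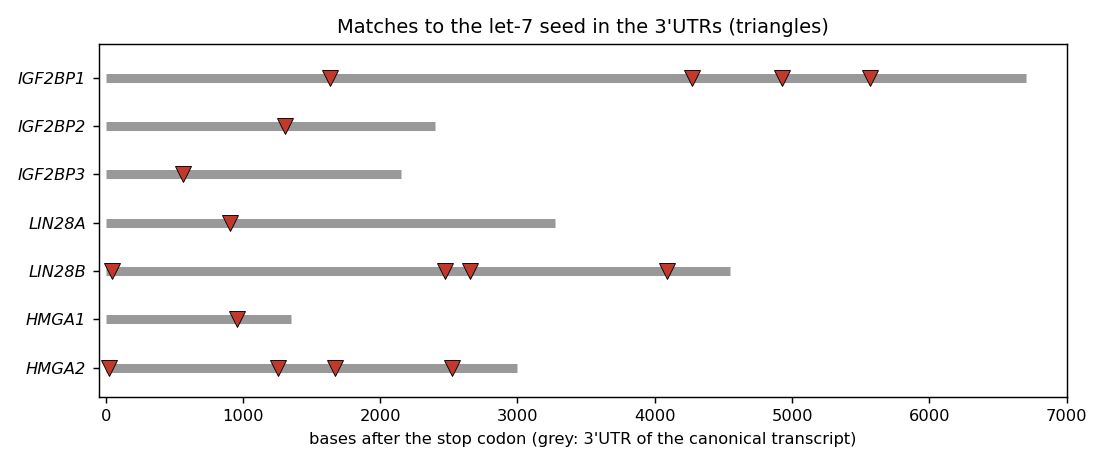
Position of each match to the let-7 seed (triangles) along the 3′UTR (grey bar) of the 7 genes, in bases after the stop codon of the canonical transcript. IGF2BP1, LIN28B and HMGA2 hold 4 matches each and the other genes 1 each.

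The libraries held 6421764 to 9416175 reads on genes (median 7377934), and the RNA RN7SL2 took 4.52 to 5.38% of them. Levels are given as FPKM, fragments scaled to gene length and library depth. The gene length used can exceed that of the canonical transcript, and does so unevenly. For HMGA2 it was 15403 bases beside 4117, and for IGF2BP3 8511 beside 4274. For IGF2BP1 it was 9109 beside 8796, and for HMGA1 2327 beside 1920. Comparisons of level between different genes therefore depend on the lengths used, whereas those of 1 gene between groups do not. Of 7 markers of Müllerian and ovarian carcinoma lineage, none reached 1 FPKM (MUC16 had no read), whereas all 4 mesenchymal markers (VIM, CDH2, FN1, ZEB1) and 3 of 6 epithelial markers (KRT7, KRT8, KRT18) did. Of 6 blood and endothelial markers, PTPRC and CD3E had no read, whereas the endothelial cadherin CDH5 was at 9.38 FPKM in siC and higher in siIGF2BP1 (15.2 FPKM, log2 difference 0.70, limma adjusted p = 0.00873). Of 5 liver markers, ALB, APOA1 and TTR had no read, and none reached 1 FPKM. SRF fell from 14.5 FPKM ± 1.28 (SD, n = 3) in siC to 1.47 FPKM ± 0.145 in siSRF and to 6.01 FPKM ± 0.714 in siIGF2BP1 (limma adjusted p = 6.07e-05 and 0.00111).

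In siC cells, 6 of the 7 genes were detected, over a range from below 1 to 654 FPKM. HMGA1 was by far the most abundant at 654 FPKM ± 23.3 (SD, n = 3), rank 29 of 19799 protein-coding genes. IGF2BP2 followed at 28.4 FPKM ± 1.16 (rank 1364), then IGF2BP1 at 12.8 FPKM ± 0.689 (rank 3265), IGF2BP3 at 9.62 FPKM ± 0.817 (rank 4218) and HMGA2 at 8.19 FPKM ± 0.491 (rank 4835). LIN28B was low at 0.832 FPKM ± 0.0663 (rank 10549), and LIN28A had no read in any siC library. The siC libraries of neighbours in this order did not overlap. All orders and ranks given here rest on the gene lengths used. Transcript lengths could change them, most of all for HMGA2 and IGF2BP3. In siIGF2BP1 cells IGF2BP1 moved below HMGA2 and IGF2BP3, whose libraries overlapped (10.9 to 12.7 and 11.4 to 12.2 FPKM). In siSRF cells IGF2BP3 (12.1 to 13.3 FPKM) and HMGA2 (12.4 to 12.7 FPKM) overlapped as well, while HMGA1 and IGF2BP2 led in all groups.

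LIN28A (ENSG00000131914, chr1:26410817-26429728, plus strand) was the single unexpressed member. It was listed at 0 in 8 of 9 libraries, and 1 read was counted in siSRF replicate 3 (0.0338 FPKM). A count of 0 allows up to 3 reads, which is 0.0821 to 0.113 FPKM for this gene depending on the library. This limit covers counting error alone, and LIN28A could not be tested.

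**Figure D2:**
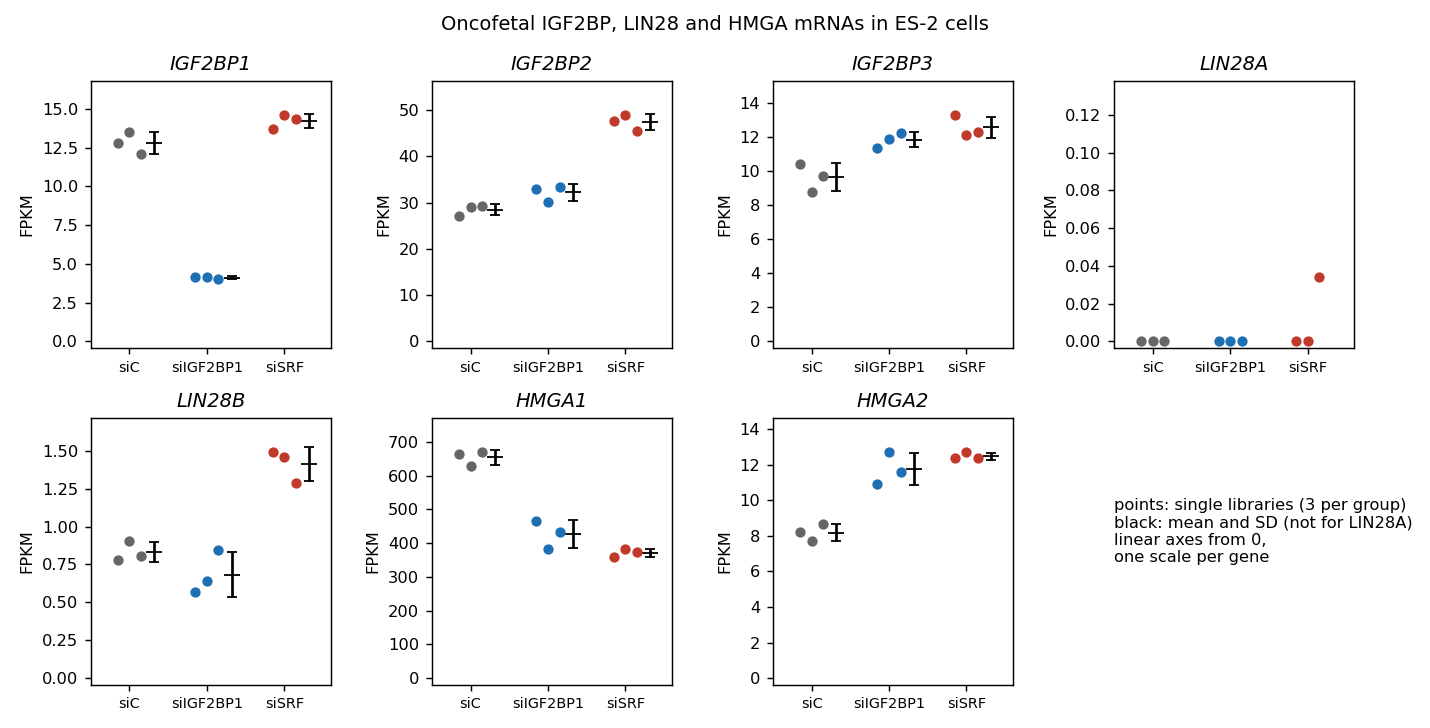
FPKM of the 7 genes in the 9 libraries, as points, with the mean and SD per group in black (none for LIN28A, of which 1 read was found in all). HMGA1 lies lower and HMGA2 higher in both knockdowns than in siC, IGF2BP2 is highest in siSRF, and IGF2BP1 is low in siIGF2BP1.

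Upon IGF2BP1 depletion, IGF2BP1 and HMGA1 fell and HMGA2 rose, while IGF2BP2, IGF2BP3 and LIN28B did not pass the threshold. Differences were tested with limma-trend on log2(FPKM + 0.1), with p-values adjusted over all genes tested and called at an adjusted p of at most 0.01. Of the 6 members tested, 3 were called (2 lower, 1 higher), and 1 of these was the gene targeted. Among all 12512 protein-coding genes tested the share called was 11.4% (5.91% lower, 5.52% higher). Upon SRF depletion, HMGA1 fell and IGF2BP2 and HMGA2 rose, so that 3 of 6 were called (1 lower, 2 higher) beside 19.8% of 12381 protein-coding genes (8.67% lower, 11.1% higher). Both comparisons use the same 3 siC libraries, and are therefore not independent of each other. The labels do not say whether the libraries come from separate cultures, so that the p-values measure the spread between these libraries, which may be technical. In bulk RNA, a lower level per cell and a change in the makeup of the cells cannot be told apart.

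The targeted gene checks the labels. IGF2BP1 (ENSG00000159217) lies at chr17:48997385-49056145 on the plus strand. It was at 12.8, 13.5 and 12.1 FPKM in the siC libraries, and at 4.18, 4.14 and 4.02 FPKM in the siIGF2BP1 libraries. No siIGF2BP1 library reached the lowest siC library, and 32.2% of the siC mean was left. The log2 difference was -1.61 (SE 0.067, limma adjusted p = 1.4e-04). In siSRF, IGF2BP1 was at 13.7, 14.6 and 14.4 FPKM, above all siC libraries by a small margin. The log2 difference of 0.15 (95% interval 0.01 to 0.30, limma adjusted p = 0.118) did not pass the threshold.

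IGF2BP2 (ENSG00000073792, chr3:185643130-185825042, minus strand), the paralog that persists in adult tissue, was at 27.1, 29.0 and 29.3 FPKM in siC and at 33.0, 30.2 and 33.5 FPKM in siIGF2BP1. The groups did not overlap, but the log2 difference of 0.18 (SE 0.0581, limma adjusted p = 0.0968) did not pass. In siSRF the gene was at 47.6, 48.9 and 45.5 FPKM, clear of both other groups. It rose 1.66-fold upon SRF depletion, by 0.73 on the log2 scale (SE 0.049, limma adjusted p = 4.58e-04). This was the largest increase among the 6 members tested that passed the threshold in a knockdown against siC.

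IGF2BP3 (ENSG00000136231, chr7:23310209-23470491, minus strand), a paralog rarely found in healthy adult tissue, was at 10.4, 8.77 and 9.71 FPKM in siC. It was at 11.4, 11.9 and 12.2 FPKM in siIGF2BP1 and at 13.3, 12.1 and 12.3 FPKM in siSRF. All 6 knockdown libraries lay above all siC libraries, yet neither log2 difference passed, with 0.30 in siIGF2BP1 (95% interval 0.11 to 0.49, limma adjusted p = 0.0489) and 0.38 in siSRF (95% interval 0.19 to 0.57, limma adjusted p = 0.017). With limma-voom on the recovered reads, both passed (adjusted p = 0.00378 and 1.29e-04), whereas with trends along GC content and gene length removed the log2 differences were 0.20 and 0.22 and did not pass (adjusted p = 0.0715 and 0.0484).

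Seen as a family, the summed level of the IGF2BP mRNAs was 50.9 FPKM ± 0.506 (SD, n = 3) in siC and 48.1 FPKM ± 1.79 in siIGF2BP1. In siSRF it was 74.1 FPKM ± 1.82, and all siSRF libraries (72.1 to 75.6 FPKM) lay above all others (46.2 to 51.2 FPKM). IGF2BP1 made up 25.1% ± 1.33 of the family sum in siC, 8.55% ± 0.442 in siIGF2BP1 and 19.2% ± 0.765 in siSRF. IGF2BP2 held the largest share in each group, at 55.9% ± 1.75, 66.8% ± 1.40 and 63.9% ± 0.805, respectively. IGF2BP3 held 18.9% ± 1.78, 24.6% ± 1.18 and 16.9% ± 0.904. These sums and shares are a description over members and were not tested. They rest on the gene lengths used, and the share of IGF2BP3 would be larger with its canonical transcript length.

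The specificity of the siRNAs cannot be read from sequence here, since the siRNA sequences were not analysed. The longest run of bases that the canonical IGF2BP1 transcript shares with IGF2BP2 was 22 bases and with IGF2BP3 21 bases, with 6 and 5 shared words of 19 bases, respectively. IGF2BP2 and IGF2BP3 shared no such word. Neither paralog was lower in siIGF2BP1 than in siC in any library.

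LIN28B (ENSG00000187772, chr6:104936616-105083332, plus strand), the LIN28 paralog that acts largely in the nucleus, rested on few reads (26 to 80 per library). It was at 0.782, 0.907 and 0.806 FPKM in siC and at 0.565, 0.640 and 0.846 FPKM in siIGF2BP1, so that these groups overlapped. Their log2 difference was -0.26 with a 95% interval from -0.86 to 0.33 (limma adjusted p = 0.529). Differences within these bounds remain possible. In siSRF it was at 1.49, 1.46 and 1.29 FPKM, above all other libraries. The log2 difference to siC of 0.70 (95% interval 0.27 to 1.13, limma adjusted p = 0.0336) did not pass, but did with limma-voom (adjusted p = 0.00315). On the log2(FPKM + 0.1) scale the change of so low a gene is understated, and with a pseudocount of 1 the difference in siSRF was 0.40. With GC content and gene length accounted for it was 0.48 (adjusted p = 0.121).

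HMGA1 (ENSG00000137309) lies at chr6:34236873-34246231 on the plus strand. It was at 664, 628 and 671 FPKM in siC, and at 464, 382 and 432 FPKM in siIGF2BP1. All siIGF2BP1 libraries were lower, and HMGA1 fell by 0.62 on the log2 scale (SE 0.0828, limma adjusted p = 0.00499), to 65.2% of the siC mean. The siSRF libraries were at 359, 383 and 373 FPKM. There HMGA1 fell by 0.82 on the log2 scale (SE 0.0512, limma adjusted p = 3.99e-04), to 56.8% of the siC mean. HMGA1 was counted with 5958 to 11300 reads per library.

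HMGA2 (ENSG00000149948, chr12:65824460-65966291, plus strand) moved the other way. It was at 8.21, 7.69 and 8.67 FPKM in siC, at 10.9, 12.7 and 11.6 FPKM in siIGF2BP1 and at 12.4, 12.7 and 12.4 FPKM in siSRF. All knockdown libraries lay above all siC libraries. HMGA2 rose by 0.52 on the log2 scale in siIGF2BP1 (SE 0.0805, limma adjusted p = 0.00867) and by 0.61 in siSRF (SE 0.0615, limma adjusted p = 0.00141). The ratio of HMGA1 to HMGA2 was 80.0 ± 2.24 (SD, n = 3) in siC, 36.6 ± 6.25 in siIGF2BP1 and 29.7 ± 0.65 in siSRF. The size of this ratio rests on the gene lengths used, which cancel only when groups are compared.

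The HMGA calls in siIGF2BP1 were close to the threshold. Leaving out any 1 of the 6 libraries moved HMGA1 to an adjusted p between 0.0108 and 0.026 and HMGA2 to one between 0.0189 and 0.0383, while the log2 differences stayed between -0.69 and -0.55 and between 0.46 and 0.57. In siSRF, HMGA1 kept its call whichever library was left out (adjusted p between 0.00196 and 0.00449), and HMGA2 lost it without siSRF replicate 2 (log2 difference 0.59, adjusted p = 0.0108). HMGA1 has the highest GC content of the 7 transcripts (61.6%, against 38% for LIN28B). When trends along GC content and gene length were removed from each library, its log2 differences were -0.50 and -0.60, those of HMGA2 were 0.38 and 0.54, and all remained called.

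**Figure D3:**
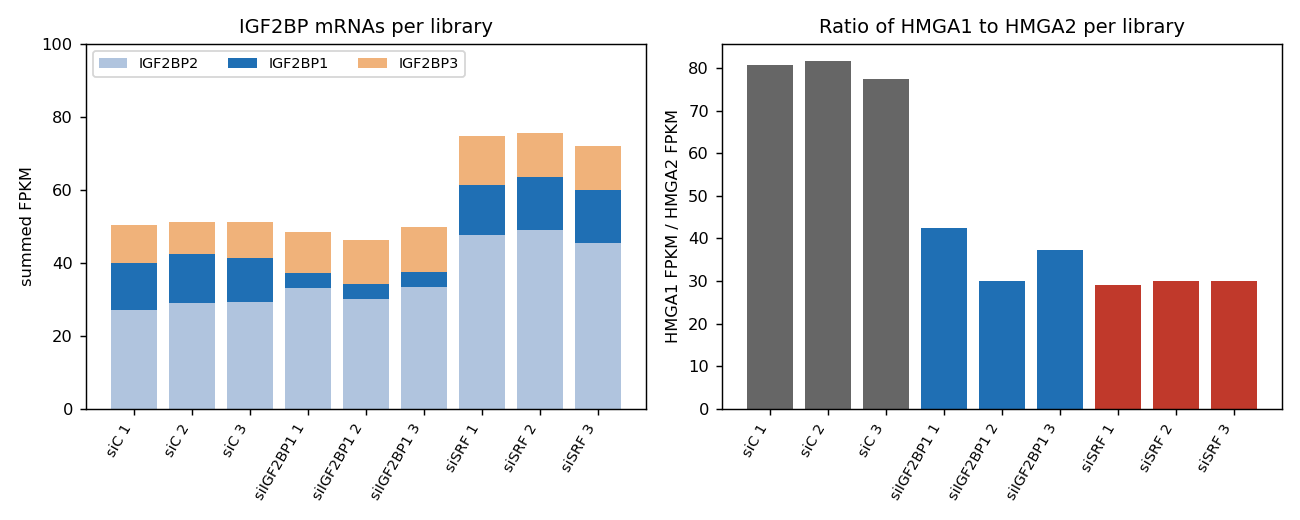
Left, summed FPKM of IGF2BP1, IGF2BP2 and IGF2BP3 in each library, stacked from 0. Right, the FPKM of HMGA1 divided by that of HMGA2 in each library, which lies between 77.4 and 81.6 in siC and between 29.0 and 42.4 in the knockdowns.

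Of the 7 genes, 5 had siIGF2BP1 and siC libraries that did not overlap, beside 50.6% of protein-coding genes tested, and 6 had siSRF and siC libraries that did not overlap, beside 57.3%. Each such gene had an exact two-sided permutation p of 0.1, the smallest that 3 libraries against 3 allow.

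The knockdowns were then compared directly. Of 6 members tested, 2 were called between siIGF2BP1 and siSRF, both lower in siIGF2BP1, beside 32% of 12507 protein-coding genes (18.3% lower, 13.7% higher). These were IGF2BP1 with a log2 difference of -1.77 (SE 0.0542, limma adjusted p = 1.35e-05) and IGF2BP2 with -0.56 (SE 0.0532, limma adjusted p = 5.35e-04). All siSRF libraries of IGF2BP2 thus lay above all siIGF2BP1 libraries. LIN28B was lower in all siIGF2BP1 libraries, but its log2 difference of -0.96 (95% interval -1.49 to -0.44, limma adjusted p = 0.0163) did not pass. HMGA1 differed by 0.19 (95% interval 0.01 to 0.38, limma adjusted p = 0.11), HMGA2 by -0.09 (95% interval -0.25 to 0.07, limma adjusted p = 0.361) and IGF2BP3 by -0.08 (95% interval -0.22 to 0.06, limma adjusted p = 0.333). These intervals give the sizes of difference that remain possible. With GC content and gene length accounted for, the values were 0.09, -0.17 and -0.02, none of them called. Libraries of 3 of the 7 genes did not overlap in this comparison, beside 65.6% of protein-coding genes.

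**Figure D4:**
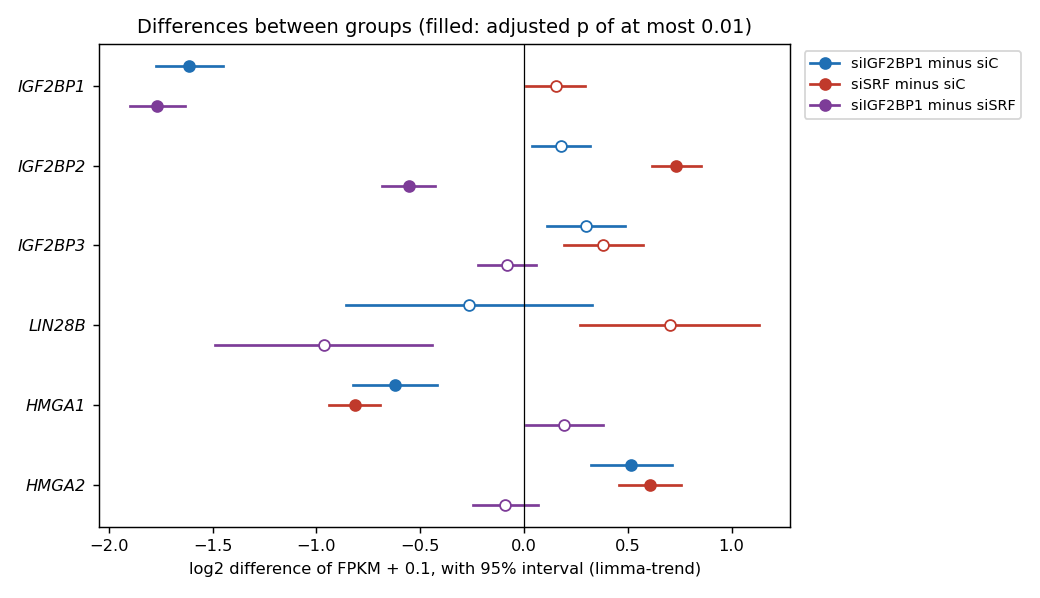
Log2 differences of FPKM + 0.1 with 95% intervals for the 6 genes tested, in siIGF2BP1 minus siC (blue), siSRF minus siC (red) and siIGF2BP1 minus siSRF (purple). Filled points passed an adjusted p of at most 0.01, which HMGA1 and HMGA2 did in both knockdowns against siC and in opposite directions.

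Factors that make, turn over or use let-7 were examined as a list of 19 genes, of which 18 were tested. In siIGF2BP1, 2 were lower and 2 higher, where 11.4% of all protein-coding genes tested were called. DICER1, the nuclease that releases mature microRNAs, rose by 0.60 on the log2 scale (SE 0.056, limma adjusted p = 0.00151), and TNRC6A, a scaffold of the silencing complex, by 0.54 (limma adjusted p = 0.00757). AGO1, an Argonaute protein that carries microRNAs, fell by 0.78 (limma adjusted p = 0.00467), and KHSRP, a KH protein that promotes processing of let-7 precursors, fell by 0.46 (limma adjusted p = 0.00382). In siSRF, 1 was lower and 2 higher, where 19.8% of all protein-coding genes tested were called. AGO4 fell by 1.05 (limma adjusted p = 0.00927), whereas AGO2 rose by 0.53 (limma adjusted p = 0.00147) and XPO5, the exporter of microRNA precursors, by 0.35 (limma adjusted p = 0.0053). The list medians were 0.06 and -0.04, beside -0.01 and 0.02 over all protein-coding genes tested.

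Of 50 genes with known or predicted let-7 sites, other than the members, 42 were tested. In siIGF2BP1, none was called lower and 3 rose, where the shares over all protein-coding genes tested were 5.91% and 5.52%, with THBS1, a matrix glycoprotein, at 1.28 on the log2 scale (limma adjusted p = 1.01e-04), NAP1L1, a histone chaperone, at 0.57 (limma adjusted p = 0.00189) and DICER1, which is on both lists. In siSRF, 1 fell, the insulin receptor substrate IRS2 with -0.79, and 7 rose, where the shares over all protein-coding genes tested were 8.67% and 11.1%. Counts this small are not read as particular to the list. Among these were LIMD2 with 1.38, the repressor E2F6 with 0.80, the cell cycle kinase CDK6 with 0.63 and MYC with 0.38 (limma adjusted p between 3.92e-04 and 0.00158). The list medians were -0.0014 and 0.09.

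Protein-coding genes tested with a 3′UTR, other than the members, were divided by their seed matches. In siIGF2BP1 the median log2 difference was -0.0078 for 11050 genes without a match, 0.0089 for 1181 genes with 1 and 0.037 for 156 genes with 2 or more. Genes called lower made up 6.05%, 5.08% and 2.56% of these classes, and genes called higher 5.58%, 5.50% and 3.85%, so that both shares were lowest in the last class. In siSRF the medians were 0.02, 0.045 and 0.02, with 8.84%, 7.76% and 5.81% called lower and 11.1%, 11.1% and 13.5% called higher. The median 3′UTR length of the classes differed (1164, 2928 and 5264 bases in the first comparison), so that matches and length move together.

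**Figure D5:**
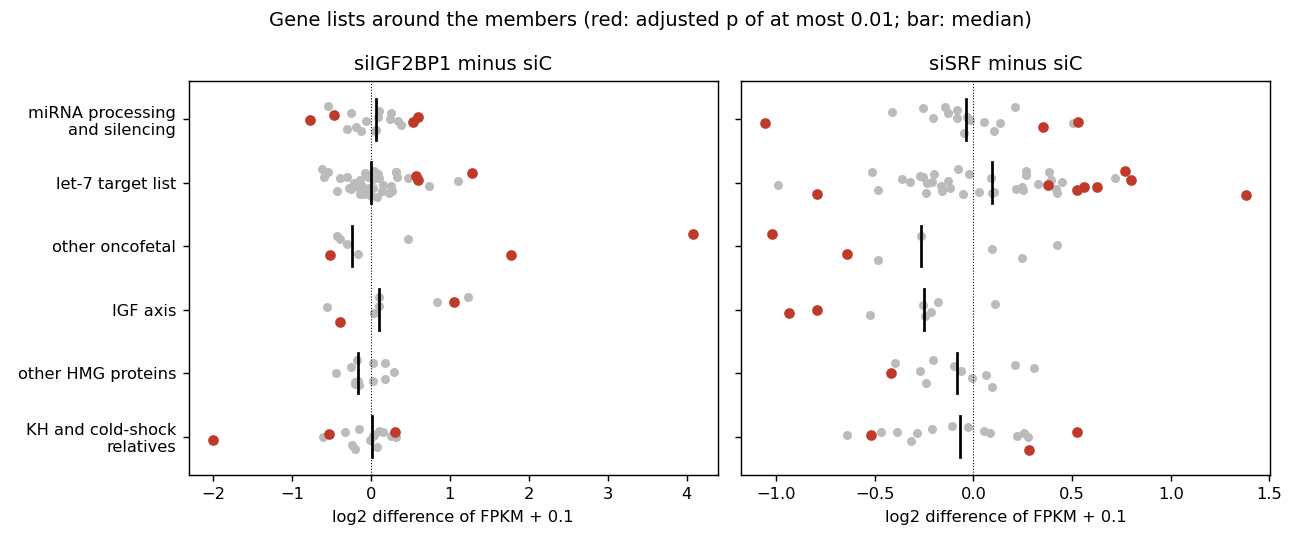
Log2 differences of FPKM + 0.1 for the tested genes of 6 lists in siIGF2BP1 minus siC (left) and siSRF minus siC (right), with called genes in red and the list median as a bar. The medians of all lists lie within 0.27 of 0, and HDLBP (-2.00) and MEST (4.09) stand farthest out on the left.

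Entries that could share reads with the members were examined, since strand use in counting is not given in the sources used here. Of 17 antisense, divergent and pseudogene entries, 13 were in the tables and 8 were tested. HMGA1P8, a processed pseudogene of HMGA1, was lower in siSRF (log2 difference -1.62, limma adjusted p = 0.0022) and not called in siIGF2BP1 (limma adjusted p = 0.157). It had 31, 18 and 11 reads over siC, siIGF2BP1 and siSRF. HMGA1P2 had 33, 20 and 16 reads over siC, siIGF2BP1 and siSRF and was not called (limma adjusted p = 0.164 and 0.0602). HMGA1P8 and HMGA1P2, the copies with the most reads, had the order of HMGA1, highest in siC and lowest in siSRF. HMGA1P1 had 12, 13 and 7 reads, HMGA1P3 9, 2 and 6, and HMGA1P4 5, 12 and 8, which is not that order. Reads of such copies and of HMGA1 cannot be told apart with certainty, but these entries hold few reads beside the 5958 to 11300 per library on HMGA1. The antisense gene IGF2BP2-AS1 had 21, 4 and 27 reads, and its log2 difference in siIGF2BP1 of -1.47 (limma adjusted p = 0.0981) did not pass. RPSAP52, transcribed opposite HMGA2, had 16, 22 and 33 reads. LIN28AP1 had 1, 3 and 2 reads, and LIN28B-AS1 had none.

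The genes whose profile was closest to a called member were found by the root mean square difference over 9 libraries in log2(FPKM + 0.1), centred on the siC mean, among 10375 protein-coding genes. For HMGA1 these were CTDSP2 (0.0375), CAMKK2 (0.0745) and CKAP2L (0.0878), and for HMGA2 they were SIKE1 (0.0466), INTS7 (0.0468) and TROVE2 (0.0487). IGF2BP2 was closest to EDRF1 (0.0535), BNC1 (0.0582) and RALA (0.0589). IGF2BP1, with its profile set by the siRNA, was closest to DUSP5 (0.111), NRIP3 (0.134) and VPS37B (0.141), with log2 differences of -1.53, -1.75 and -1.71 in siIGF2BP1. These likenesses are descriptions over the 9 libraries from which they were picked.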

How the data were processed

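The authors clipped reads with cutadapt 1.14, aligned them to GRCh38 with HISAT2 2.1.0 and SAMtools 1.5, counted them on Ensembl 89 genes with featureCounts 1.5.3, and normalized them by TMM in edgeR 3.18.1. They deposited FPKM values in 2 tables, which also hold their fold changes, p-values and FDR (not used here). The siC values of both tables are identical. FPKM values came back to whole reads (tolerance 0.01) in 100% of cases. Per library, 6421764 to 9416175 reads were counted on genes. Each pair of groups was fitted with limma 3.58.1 (trend, R 4.3.3) after adding 0.1 to FPKM and taking log2, leaving out genes whose mean in that pair was below 0.1 FPKM. The Benjamini-Hochberg adjustment covered every gene fitted. The shares of genes called in the report are over protein-coding genes, while the counts under other settings are over all genes. The fit was run on simulated reads, where some genes simulated without a change were also called. Genes named outside the 7 members are the called ones of each list with the smallest p (up to 4 per list and knockdown, mean of at least 1 FPKM), the overlapping entries, the 3 genes most alike to each called member, and SRF, and some list genes are not reported here. Members and lists were chosen with earlier results of these data known. GENCODE 44 transcripts gave 3′UTRs, and RefSeq the microRNAs. Alternatives were other pseudocounts (0.01, 1), filters, rescaling by median ratios, robust eBayes, an adjusted p of 0.05, limma-voom on recovered reads, all 9 libraries in one fit, a replicate block and leaving out each library. The correction for GC content and gene length was chosen after seeing the data.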

Additional observations from a re-analysis of the deposited data

How the results depend on the processing

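None of the member differences changed direction under any alternative run. The counts of all genes called, 1588 in siIGF2BP1 against siC, 2665 in siSRF against siC and 4460 in siIGF2BP1 against siSRF, became 3596, 5205 and 7132 at an adjusted p of at most 0.05, and 3805, 5123 and 6912 with limma-voom on the recovered reads. With all 9 libraries in one fit, the first was 2481. Leaving out each library gave 436 to 738, 946 to 1796 and 2885 to 3358, with fewer samples per fit. Same-numbered libraries showed no shared deviation (correlations between -0.0438 and 0.0186), and different-numbered libraries gave values between -0.0534 and 0.0443. Correlations over many genes can miss a pairing that touches only some of them. Whether the numbers pair the libraries therefore cannot be decided from these values. With the replicate block, the counts were 91, 501 and 2075, and the calls of HMGA1 (-0.62, adjusted p = 0.0215) and HMGA2 (0.52, adjusted p = 0.0494) in siIGF2BP1 and of HMGA2 in siSRF (0.61, adjusted p = 0.015) were lost. With no filter, HMGA2 in siIGF2BP1 (0.52) had an adjusted p of 0.0104, with more genes tested. With limma-voom, calls were gained for IGF2BP3 in siIGF2BP1 (0.30) and siSRF (0.38), LIN28B in siSRF (0.76) and against siSRF (-1.05), and HMGA1 against siSRF (0.19). With all 9 libraries, IGF2BP3 in siSRF (0.38) and LIN28B in siIGF2BP1 against siSRF (-0.96) passed. Leaving out 1 library at a time moved HMGA1 in siIGF2BP1 to between -0.69 and -0.55, HMGA2 there to between 0.46 and 0.57 and HMGA2 in siSRF to between 0.56 and 0.65. The cause was not tested. With a pseudocount of 1, LIN28B differed by 0.40 in siSRF. At a minimum mean of 1 FPKM, LIN28B gave no value in siIGF2BP1 against siC. Over the members, 263 values under an alternative kept their side of the threshold, 17 lost and 7 gained a call. The looser threshold of 0.05 is not in this tally. Under it IGF2BP3 in both knockdowns, LIN28B in siSRF and LIN28B in siIGF2BP1 against siSRF would also pass.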

Other observations

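Other oncofetal genes were mostly silent in ES-2 cells. Of 21 listed genes, 8 could be tested in siIGF2BP1 and 7 in siSRF, and GPC3, DLK1, SOX11, POU5F1, L1TD1 and TDGF1 had no read in any library. Of those tested, 1 was called lower and 2 higher in siIGF2BP1, and 2 lower in siSRF. Over all protein-coding genes tested, 11.4% and 19.8% were called, and so short a list allows few calls. PLAG1, PLAGL2, NR6A1, TPBG and CLDN6 were tested and not called in either. PEG10, an imprinted gene derived from a retrotransposon, rose from 7.24 FPKM ± 0.616 (SD, n = 3) in siC to 24.9 FPKM ± 1.41 in siIGF2BP1 and fell to 3.52 FPKM ± 0.396 in siSRF. Its log2 differences were 1.77 and -1.02 (limma adjusted p = 1.67e-04 and 0.00182). MEST, another imprinted gene, was nearly silent in siC, with 8 reads over the 3 libraries, and had 301 reads in siIGF2BP1 and 2 in siSRF. The tumour antigen PRAME fell in both knockdowns, with log2 differences of -0.52 and -0.64 (limma adjusted p = 0.00621 and 0.00293).

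The IGF2BP proteins are named for IGF2, yet IGF2 had 1 read over the siC libraries and none elsewhere, and IGF1 had no read. IGFBP7, a secreted protein that binds insulin-like growth factors, rose from 3.43 FPKM ± 0.55 (SD, n = 3) to 7.18 FPKM ± 0.486 in siIGF2BP1 and fell to 1.74 FPKM ± 0.201 in siSRF (limma adjusted p = 0.00405 and 0.00875). The insulin receptor substrate IRS1 fell by 0.39 in siIGF2BP1 and IRS2 by 0.79 in siSRF on the log2 scale. Of 8 tested genes of this axis, 1 was lower and 1 higher in siIGF2BP1, and 2 were lower in siSRF, where 11.4% and 19.8% of all protein-coding genes tested were called.

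Of 12 other HMG proteins tested, none was called in siIGF2BP1 and 1, HMGB2 (log2 difference -0.42, limma adjusted p = 8.64e-04), was lower in siSRF, where 11.4% and 19.8% of all protein-coding genes tested were called. So short a list allows few calls, and no difference from other genes was tested. Among 16 tested relatives with KH or cold-shock domains, 2 were lower in siIGF2BP1, where 5.91% of all protein-coding genes tested were lower. HDLBP, a protein with many KH domains, fell from 69.0 FPKM ± 2.80 (SD, n = 3) to 17.2 FPKM ± 0.749, a larger log2 difference (-2.00, limma adjusted p = 8.03e-05) than that of the targeted IGF2BP1. PCBP1 fell by 0.53 on the log2 scale. In siSRF, YBX1 rose by 0.53 and FXR1 by 0.28, while PCBP1 fell by 0.52 on the log2 scale.

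Some cell type markers moved with the groups, and their part in the members' differences was not tested. The summed level of the epithelial markers was 148.7 to 160.9 FPKM in siC, 191.9 to 219.5 in siIGF2BP1 and 216.5 to 221.9 in siSRF, with EPCAM, CDH1 and KRT19 at or near 0. The keratins behind this sum differed between the knockdowns. In siIGF2BP1, KRT7 (log2 difference 0.59) and KRT8 (0.55) were called higher and KRT18 (-0.07) was not called. In siSRF, KRT18 (0.91) and KRT7 (0.33) were called higher and KRT8 (0.19) was not called. The summed level of the mesenchymal markers was 1092 to 1110, 894 to 975 and 881 to 931 FPKM. It was nearly all VIM (mean 1056 FPKM in siC), which was not called in siIGF2BP1 (limma adjusted p = 0.04) and was lower in siSRF (limma adjusted p = 0.0091). FN1 fell in both knockdowns (log2 differences -0.80 and -1.36), CDH2 rose in siIGF2BP1 (0.66, from 25.4 to 40.1 FPKM), and ZEB1 was not called in either. The summed level of the blood and endothelial markers was 8.54 to 11.2, 14.96 to 16.65 and 7.70 to 8.67 FPKM, most of it CDH5. Among the liver markers, SERPINA1 had 11, 47 and 17 reads over the groups and was not called.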
